A study of Homo sapiens with 9 samples.

Results

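The regions described are bidirectional coding promoters, stretches of open chromatin at which 2 protein-coding genes start on opposite strands and point away from each other. FAIRE-seq was performed on Jurkat, a human T cell leukaemia line (clone E6-1). In this assay, fixed and sheared chromatin is extracted with phenol and chloroform, and the DNA that is free of nucleosomes is recovered and sequenced. Of 9 samples, 4 had peak lists that were analysed here. They were labelled NS_DMSO and NS_rottlerin (not stimulated, after DMSO or after 15 µM rottlerin for 1 h) and SW_DMSO and SW_rottlerin (the same pre-treatments, then PMA and calcium ionophore, washing and 1 day of culture without stimulus). The stimulus lasted 4 h by the labels and 2 h by the methods. All 4 were Jurkat cells, each label had 1 library, and the total input that served as control was an equal mix of input DNA from unstimulated and stimulated cells. The other 5 samples were not analysed here.

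Peaks that overlapped or touched were joined across the 4 lists, which gave 40703 merged regions on chromosomes 1 to 22, X and Y. A region was a bidirectional coding promoter if its mid-point lay within 1 kb of the transcription start sites (TSSs) of 2 different protein-coding genes. The TSSs had to be on opposite strands, pointing apart and at most 1 kb from each other, with every coding transcript of GENCODE release 44 on GRCh37 allowed. The observed to expected CpG ratio had to be at least 0.4 in the central 300 bp. These conditions kept 1123 regions, 2.76% of all. No peak value entered the choice beyond the presence of a peak in at least 1 list. The 1123 regions lay at 1108 gene pairs, of which 13 had 2 regions and 1, RUBCN/FYTTD1, had 3, so 29 regions shared their pair with another. Throughout, a pair is written with the minus-strand gene first.

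The labels and the study's methods differed on which samples the lists came from. All 4 lists, joined on every chromosome, gave 40731 regions, and a merged set of that size is described in the methods for 4 DMSO samples. Each list is therefore called by its label only, the other lists are also counted together against the NS_DMSO-labelled list, and no statement is made on rottlerin or on stimulus withdrawal. The lists held 18977 (NS_DMSO), 20132 (SW_DMSO), 23835 (NS_rottlerin) and 30409 (SW_rottlerin) peaks, with median fold enrichments between 4.03 and 4.08. Sequencing depth was unknown from the lists. Because there was no replicate of any label, no test was possible between lists, and the 95% Wilson intervals given for shares cover counting error only. Among T cell markers, 10 of 14 genes had a merged region within 1 kb of a TSS and 5 of those genes had one in all 4 lists, among them LCK and CD3E, while CD2, CD7, TRAC and TRBC1 had none. Of 10 markers of other cell types, KRT5 and COL1A1 had a region, neither in all 4 lists.

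Bidirectional promoters are common in mammalian genomes. The short stretch between the divergent genes serves both transcription units, is usually rich in CpG and poor in TATA boxes, and often serves genes of basic cell functions such as DNA repair, mitochondria and RNA processing. Divergent H2A and H2B histone genes are the classic paired case, and factors such as NF-Y (which reads CCAAT), the ETS factor GABP, NRF1 and YY1 are known to bind promoters of this kind.

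The letters between the TSSs are shown first, because the results below turn on which short motifs they hold and where. The sequences are GRCh37, plus strand, 5′ to 3′. Each is the longest stretch between the Ensembl canonical TSSs of both genes that no annotated exon touches, so the minus-strand gene starts to its left and the plus-strand gene to its right. Capitals mark matches on either strand to the CCAAT box, to the GC box spelled GGGCGG, to the TATA box spelled TATAAA and to the E-box spelled CACGTG. They also mark the motifs of ETS factors (CCGGAAGT), NRF1 (GCATGCGC), CREB (the CRE, TGACGTCA), YY1 (AAGATGGCG) and ZNF143 (ACTACAATT). Where matches overlap, their capitals run together. The 4 H2A and H2B pairs come first, since each held at least 3 CCAAT matches. They lie at chr1:149858233-149858467, chr1:228645575-228645803, chr6:27100575-27100821 and chr6:27860964-27861202.
H2BC21/H2AC20: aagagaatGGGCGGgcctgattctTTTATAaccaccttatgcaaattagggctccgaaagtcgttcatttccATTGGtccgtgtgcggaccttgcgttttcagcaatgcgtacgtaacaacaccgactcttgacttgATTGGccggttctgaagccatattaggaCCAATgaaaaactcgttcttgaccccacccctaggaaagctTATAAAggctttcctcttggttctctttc
H2AC25/H2BC26: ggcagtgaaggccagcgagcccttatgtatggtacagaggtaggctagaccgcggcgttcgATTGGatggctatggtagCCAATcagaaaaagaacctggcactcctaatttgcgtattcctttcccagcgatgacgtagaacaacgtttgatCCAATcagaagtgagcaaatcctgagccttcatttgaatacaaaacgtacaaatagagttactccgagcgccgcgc
H2BC11/H2AC11: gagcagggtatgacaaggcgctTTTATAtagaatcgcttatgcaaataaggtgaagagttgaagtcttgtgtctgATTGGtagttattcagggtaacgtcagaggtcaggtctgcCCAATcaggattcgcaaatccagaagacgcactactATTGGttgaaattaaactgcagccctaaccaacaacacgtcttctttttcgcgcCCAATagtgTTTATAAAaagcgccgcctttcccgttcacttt
H2AC17/H2BC17: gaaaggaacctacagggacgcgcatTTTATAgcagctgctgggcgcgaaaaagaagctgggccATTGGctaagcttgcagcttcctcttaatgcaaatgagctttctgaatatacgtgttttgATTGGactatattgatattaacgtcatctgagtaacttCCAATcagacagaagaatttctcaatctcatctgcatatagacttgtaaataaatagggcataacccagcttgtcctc

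The next stretches show the motif classes that recur at other pairs: repeated CCAAT at SARS2/MRPS12 (chr19:39421404-39421583), an overlapping pair of NRF1 matches with CRE, GC box and CCAAT at GTF3C1/KATNIP (chr16:27561235-27561453), ETS with E-boxes at THAP5/DNAJB9 (chr7:108210195-108210310), YY1, CRE and ETS at KYAT1/LRRC8A (chr9:131644316-131644411), and ZNF143 beside CCAAT at EIF2B4/SNX17 (chr2:27593206-27593362).
SARS2/MRPS12: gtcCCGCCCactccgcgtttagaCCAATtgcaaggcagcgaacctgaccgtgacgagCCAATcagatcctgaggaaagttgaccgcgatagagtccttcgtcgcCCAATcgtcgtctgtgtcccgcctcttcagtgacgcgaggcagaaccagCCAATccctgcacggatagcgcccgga
GTF3C1/KATNIP: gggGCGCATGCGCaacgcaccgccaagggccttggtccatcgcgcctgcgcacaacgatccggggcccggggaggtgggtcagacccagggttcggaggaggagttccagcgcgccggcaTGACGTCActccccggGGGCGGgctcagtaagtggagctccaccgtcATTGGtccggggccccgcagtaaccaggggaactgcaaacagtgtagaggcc
THAP5/DNAJB9: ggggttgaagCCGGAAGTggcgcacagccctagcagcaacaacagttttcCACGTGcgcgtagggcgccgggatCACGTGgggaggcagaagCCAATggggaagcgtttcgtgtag
KYAT1/LRRC8A: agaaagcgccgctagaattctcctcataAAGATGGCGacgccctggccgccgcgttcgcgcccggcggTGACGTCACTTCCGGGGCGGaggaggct
EIF2B4/SNX17: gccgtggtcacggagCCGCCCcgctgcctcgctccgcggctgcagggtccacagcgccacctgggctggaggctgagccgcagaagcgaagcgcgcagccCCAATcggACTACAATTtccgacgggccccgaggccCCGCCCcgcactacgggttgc

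The last 3 are shown for their peaks. CAB39L/SETDB2 (chr13:50018201-50018409) was among the 5 highest scores, HEATR5B/GPATCH11 (chr2:37311516-37311660) had the largest ratio to the NS_DMSO-labelled list in the SW_DMSO-labelled list, and ZSWIM7/TTC19 (chr17:15903032-15903097) had the highest score among regions without a peak in the NS_DMSO-labelled list.
CAB39L/SETDB2: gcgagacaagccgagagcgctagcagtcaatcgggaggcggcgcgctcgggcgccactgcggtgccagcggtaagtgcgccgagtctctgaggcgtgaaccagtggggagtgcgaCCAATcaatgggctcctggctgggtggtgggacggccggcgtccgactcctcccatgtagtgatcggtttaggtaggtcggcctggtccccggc
HEATR5B/GPATCH11: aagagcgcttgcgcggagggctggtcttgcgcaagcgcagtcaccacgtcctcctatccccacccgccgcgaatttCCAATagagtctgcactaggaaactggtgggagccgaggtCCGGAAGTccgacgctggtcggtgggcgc
ZSWIM7/TTC19: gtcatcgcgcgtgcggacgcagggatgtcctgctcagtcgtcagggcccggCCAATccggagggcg

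Most bidirectional coding promoters were open in every list. A peak in all 4 lists was found at 868 of the 1123 regions (77.3%, interval 74.7 to 79.7), against 26.6% of all merged regions. CpG-rich coding promoters of one direction, chosen by the same CpG limit and distance but with no divergent coding or long non-coding partner, had a peak in all 4 lists at 3668 of 5853 regions (62.7%). Coding promoters with a divergent long non-coding RNA had one at 1044 of 1534 (68.1%). The difference to promoters of one direction was 14.6 percentage points (interval 11.8 to 17.3) and that to promoters with a divergent long non-coding RNA 9.24 points (5.82 to 12.6). The bidirectional promoters had a peak in 932 (NS_DMSO), 964 (SW_DMSO), 1017 (NS_rottlerin) and 1086 (SW_rottlerin) cases, an order that was also the order of the lists' lengths.

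Their peaks were also stronger, and their merged regions were wider. The highest score in any list, 10 times the −log10 of the q-value, had a median of 124 at bidirectional coding promoters (quartiles 72 and 184), 97 at promoters of one direction, 107 at those with a divergent long non-coding RNA and 54 over all regions. A score of 145 or more, reached by 10.1% of all regions, was reached by 455 bidirectional promoters (40.5%) and by 28.9% of promoters of one direction. The merged regions were 488 bp wide in the median, against 369 bp at promoters of one direction and 294 bp over all regions. A merged region spans the peaks of every list that has one there, so this is not the width of a single peak.

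Since a weak peak is easily missed in a list, presence was also compared at like scores. Between scores of 50 and 99, 164 of 284 bidirectional promoters (57.7%, 51.9 to 63.4) were present in all 4 lists, against 46.6% (44.3 to 48.9) of promoters of one direction and 26% of all regions. Promoters with a divergent long non-coding RNA had 51.2% (46.6 to 55.7) in that class and 90.4% (87.0 to 93.0) between 100 and 149, where bidirectional promoters had 94.0% (90.5 to 96.3), so at like scores the intervals of these kinds overlapped. Between 100 and 149, promoters of one direction had 91.5% (89.8 to 92.9), which also overlapped the interval of bidirectional promoters. Below 50 the shares were 13.3% (8.60 to 20.1) at bidirectional promoters, 7.11% (5.77 to 8.74) at promoters of one direction and 2.33% over all regions. From 150 upwards every kind of CpG-rich coding promoter was near 100%, and all 226 bidirectional promoters with a score of 200 or more were in every list. The distance to the TSS was a further difference between the kinds, because a mid-point close to a pair of TSSs tends to be close to 1 of them: 45% of bidirectional promoters and 26.7% of promoters of one direction had their mid-point within 50 bp of a coding TSS. Within that distance the shares in all 4 lists were 72.9% (68.8 to 76.6) and 56.1% (53.7 to 58.6), and from 200 bp upwards they were 75% (66.4 to 82.0) and 56.5% (53.8 to 59.0).

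**Figure D1:**
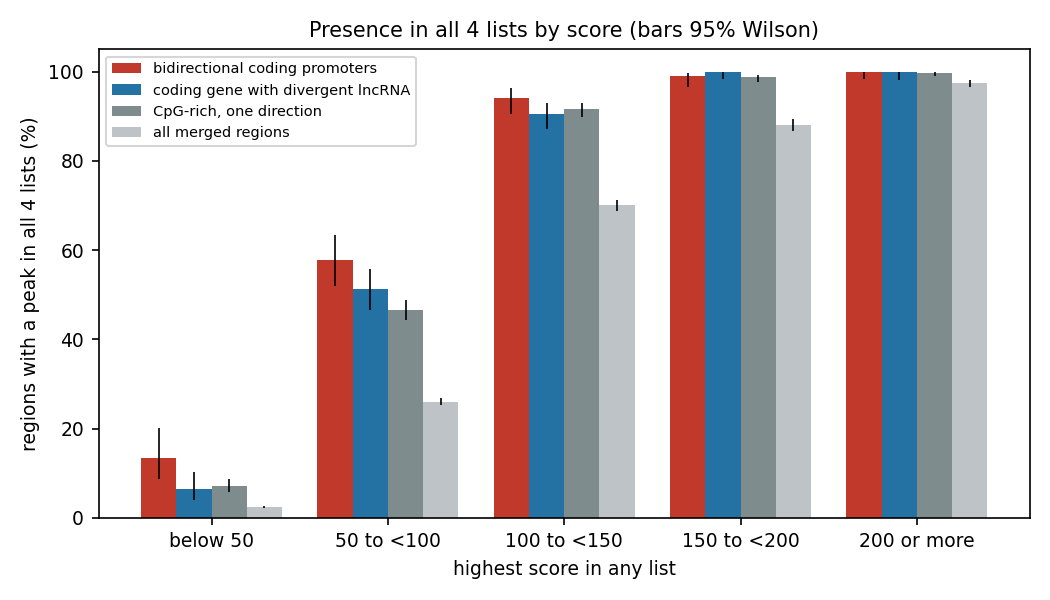
Share of regions with a peak in all 4 lists (y axis, percent) by the highest score in any list (x axis), for bidirectional coding promoters, coding promoters with a divergent long non-coding RNA, CpG-rich coding promoters of one direction and all merged regions; error bars are 95% Wilson intervals. Between 50 and 99 the bidirectional promoters stand at 57.7% and all regions at 26%, and above 150 the kinds of promoter coincide.

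Genes in divergent coding pairs had a merged region more often than other coding genes. Of 1461 annotated divergent coding pairs with TSSs at most 1 kb apart, 1182 (80.9%, 78.8 to 82.8) had a merged region within 1 kb of both TSSs. Of the 2825 genes in such pairs, 2406 (85.2%) had a merged region within 1 kb of a TSS, against 7587 of 16996 other protein-coding genes (44.6%). These groups of genes were not matched for CpG content or number of annotated TSSs, and both genes of a pair could be counted by the same region. Many other coding genes are tissue-restricted, and their expression in Jurkat was not measured here.

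Some divergent pairs are well known. Of 30 pairs listed from general knowledge, 24 were members, 21 of them with a peak in all 4 lists, with a median score of 152.5. Over all bidirectional promoters 77.3% had a peak in all 4 lists, with a median score of 124. Over all merged regions 26.6% had one. With only 24 members, a difference from these shares was not tested. COL4A1/COL4A2, the genes of type IV collagen of basement membranes, and PRPF31/TFPT were annotated within the spacing but had no member. CD3D/CD3G, PSMB8/TAP2, NDUFAF7/PRKD3 and FANCD2/CIDECP1 were not annotated as divergent coding pairs within 1 kb.

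HSPD1/HSPE1 encodes the mitochondrial chaperonin HSP60 and its co-chaperonin HSP10. Its region at chr2:198364046-198365149 had fold enrichments over input of 6.34 (NS_DMSO), 5.78 (SW_DMSO), 6.33 (NS_rottlerin) and 6.74 (SW_rottlerin). PPAT/PAICS encodes enzymes of purine synthesis, and its region at chr4:57301672-57302476 gave 5.34, 4.76, 5.43 and 5.85 in the same order of lists. In GART/SON, which joins a purine synthesis enzyme with a splicing protein, the values were 4.74, 4.64, 4.76 and 5.49. All 3 pairs had their lowest value in the SW_DMSO-labelled list and their highest in the SW_rottlerin-labelled list.

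Pairs with a DNA repair gene covered a wide range. XPC/LSM3, a damage sensor of nucleotide excision repair beside an RNA-binding Sm-like protein, had fold enrichments of 7.29, 6.12, 6.41 and 6.35. MRE11/ANKRD49, with the nuclease of the MRN complex, had 4.79, 4.66, 4.77 and 5.02, the narrowest span among the known pairs in all 4 lists, with a highest value 1.08 times the lowest. NPAT/ATM, in which a histone gene activator diverges from the kinase of the response to double-strand breaks, had 5.97, 7.27, 8.41 and 8.62, the widest span at 1.45 times.

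Antigen presentation was represented by TAP1/PSMB9, the peptide transporter and the immunoproteasome subunit of the MHC locus. Its region at chr6:32821450-32822007 was weak but present throughout, with 3.59, 2.99, 3.42 and 3.34. SURF1/SURF2, from the tightly packed surfeit locus, had a peak in the NS_rottlerin-labelled (3.67) and SW_rottlerin-labelled (3.88) lists only. TMEM258/FEN1, with the flap endonuclease of DNA replication, had its one peak in the SW_rottlerin-labelled list (2.52), and PREPL/CAMKMT had none in the NS_DMSO-labelled list and 3.25, 3.94 and 3.90 in the others.

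**Figure D2:**
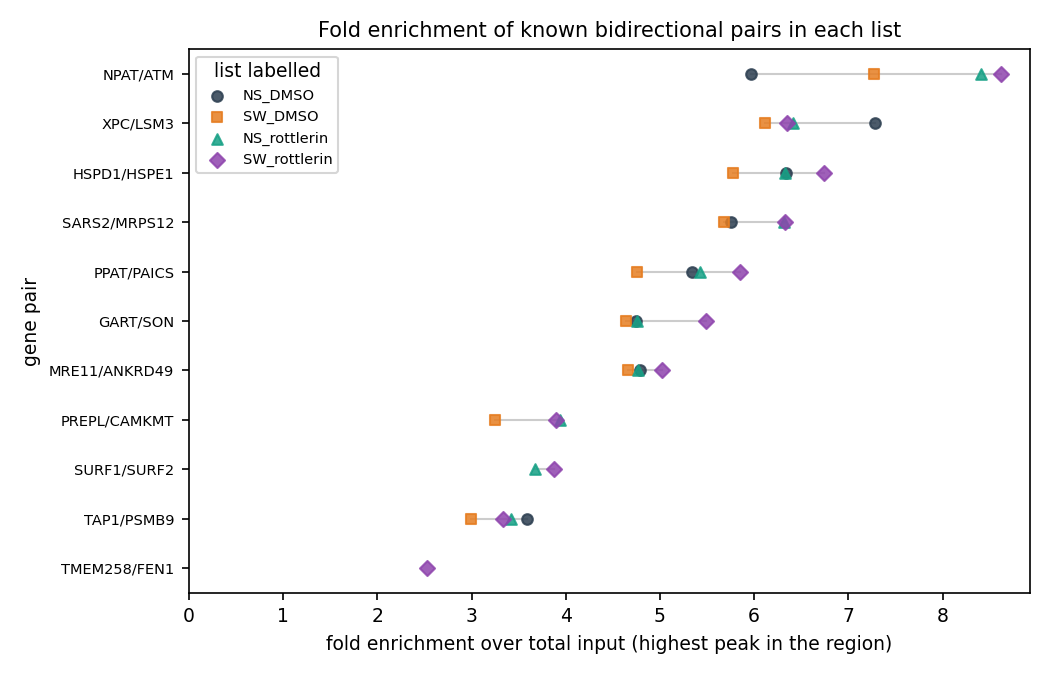
Fold enrichment over total input (x axis, highest peak in the region) at 11 of the known divergent pairs (y axis, sorted by their highest value) in the lists labelled NS_DMSO, SW_DMSO, NS_rottlerin and SW_rottlerin; each symbol is 1 library and the grey line joins the lowest and highest. NPAT/ATM spans 5.97 to 8.62 and MRE11/ANKRD49 4.66 to 5.02, and a missing symbol means no peak in that list.

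The highest scores of all lay at PIP4P1/PNP (chr14:20929551-20930255), where PNP encodes purine nucleoside phosphorylase, an enzyme whose loss causes a T cell immunodeficiency. Its scores were 395 (NS_DMSO), 328 (SW_DMSO), 412 (NS_rottlerin) and 425 (SW_rottlerin). IQCD/TPCN1, with an endolysosomal channel gene, had scores between 233 and 401, the highest in the NS_rottlerin-labelled list. TBCCD1/DNAJB11, with a chaperone of the endoplasmic reticulum, had 347, 361, 362 and 393, and a second, weaker region at the same pair had 63, 61, 108 and 184. CAB39L/SETDB2 had 313, 282, 356 and 386, and TOM1L2/DRC3 311, 289, 305 and 385. Each of these 5 regions had a score of at least 233 in every list.

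Genes of basic cell functions were common in divergent pairs. Of all annotated protein-coding genes, 14.2% belonged to a divergent coding pair. This share was 40.3% for DNA replication and repair genes (64 of 159), 37.1% for genes of mitochondrial proteins (82 of 221), 35.8% for the transcription machinery, 33.7% for chaperones, 32.0% for RNA processing and 27.4% for translation. It was 12.6% for zinc-finger genes and 11.9% for genes of antigen processing and T cell signalling (14 of 118). These shares are a property of the annotation and not of the peaks.

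What the peaks added was how the pairs of each list were kept across lists. The 61 regions with a DNA replication or repair gene had a median score of 167 and a peak in all 4 lists in 52 cases (85.2%, 74.3 to 92.0), against 77.3% of all bidirectional promoters. Examples are ORC1/PRPF38A, with the largest subunit of the origin recognition complex (fold enrichments 6.32, 5.37, 7.46 and 5.86), XRCC1/PINLYP, with the scaffold of single-strand break repair (7.05, 7.41, 8.41 and 8.07), and RPA3/UMAD1, with the smallest subunit of the single-strand binding protein RPA (6.92, 5.27, 6.28 and 4.89). The 43 regions with a translation gene had a median score of 159 and 38 were in all 4 lists, among them SERP1/EIF2A (7.28, 6.97, 7.74 and 8.14) and RPS16/SUPT5H (5.67, 5.43, 6.01 and 5.88).

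The 68 regions with a mitochondrial gene had a median score of 140, and 57 were in all 4 lists. NDUFS1/EEF1B2, with the largest subunit of respiratory complex I and a translation elongation factor, had 7.87, 6.78, 6.79 and 7.99. Of 27 chaperone regions, 25 were in all 4 lists, among them BAG1/CHMP5 (8.96, 8.23, 8.17 and 7.68). RNA processing (44 of 52), ubiquitin and proteasome (40 of 51), transcription machinery (31 of 40), cell cycle (30 of 40) and zinc-finger regions (32 of 43) had shares in all 4 lists between 74.4% and 84.6%. The intervals of all these groups overlapped, and each included the 77.3% of all bidirectional promoters.

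T cell genes were few. Of 11 regions with a gene of antigen processing or T cell signalling, 9 were in all 4 lists (81.8%, 52.3 to 94.9). That interval included the 77.3% of all bidirectional promoters, and the share over all merged regions was 26.6%. One of them, SIRT2/NFKBIB, with the NF-κB inhibitor IκBβ, had 6.37, 6.42, 6.37 and 7.45. Its highest value was less than 1.25 times its lowest. IRF3/BCL2L12, from the same gene list, had a wider span, with 4.24, 5.51, 4.17 and 5.02.

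The histone pairs formed a group of their own by sequence. Of 9 regions at pairs of histone genes, 8 joined an H2A with an H2B gene and 1, H3C7/H2BC9, an H3 with an H2B gene. The core histone genes are expressed in S phase. Of the 9 regions, 8 had a peak in all 4 lists (88.9%, 56.5 to 98.0), with highest scores between 60 and 216. That interval included the 77.3% of all bidirectional promoters, and the share over all merged regions was 26.6%. The exception was H2BC13/H2AC13, with no peak in the NS_DMSO-labelled list and 4.14, 4.09 and 4.62 in the others. H2BC21/H2AC20 had fold enrichments of 5.98, 5.77, 6.48 and 6.54, H2BC11/H2AC11 6.16, 5.75, 7.37 and 6.30, and H2AC17/H2BC17 6.45, 6.71, 5.43 and 6.09. Histone genes are near-identical copies, so reads at their edges may map to more than 1 gene, and how such reads were treated is not given in the sources used here.

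Between the canonical TSSs, 194 to 251 bp apart, all 8 H2A and H2B pairs held at least 3 CCAAT matches, as in the printed stretches. Of the 770 other pairs with canonical TSSs that met the rule, 46.6% held at least 1, 24.7% at least 2 and 12.3% at least 3. TATA matches were present at 6 of 8 histone pairs and at 3.51% of other pairs, while a GC box was present at 1 of 8 and at 72.6%. The central windows of the histone regions had a GC content between 30.3% and 58.7%, against a median of 64.0% over all bidirectional promoters. This comparison was chosen after the sequences were seen.

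The spacing of the TSSs and the strength of the peak went together at the short end. With the canonical TSS of each gene, 778 of the 1123 regions kept their pair within the rule. The TSSs of these pairs were 239 bp apart in the median (quartiles 132 and 394.5), the region's mid-point lay between them in 529 cases (68.0%) and the region covered both TSSs in 655 (84.2%). In 126 pairs under 100 bp apart the median score was 81.5 and 67 regions (53.2%, 44.5 to 61.7) had a peak in all 4 lists. In the 173 pairs from 200 to below 300 bp apart the median score was 178 and 148 regions (85.5%, 79.5 to 90.0) had one. From 100 bp upwards the shares lay between 79.9% and 86.7% with overlapping intervals. The median width rose from 311 bp under 100 bp of spacing to 817.5 bp from 500 bp upwards. With the TSS pair nearest to the mid-point in place of the canonical one, the shares were 58.7% under 100 bp.

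**Figure D3:**
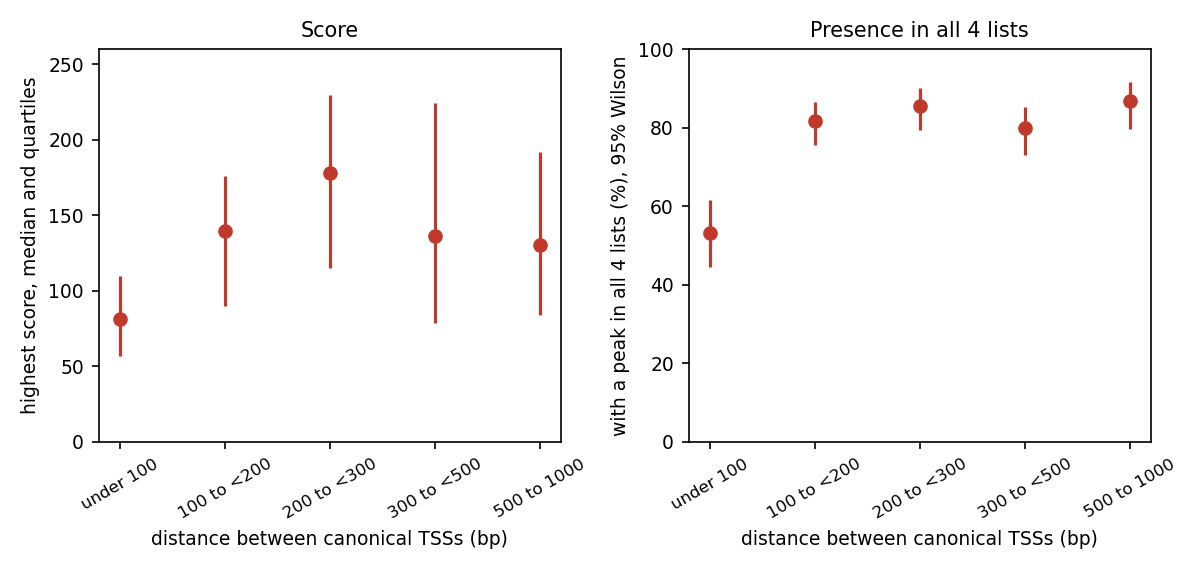
Left, the highest score of bidirectional coding promoters (y axis, points are medians and bars quartiles) by the distance between canonical TSSs (x axis, bp). Right, the share with a peak in all 4 lists (y axis, percent, bars 95% Wilson intervals) for the same classes; the 126 pairs under 100 bp stand at 53.2%, below every other class.

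The CpG ratio above the limit was not related to presence in this way. Shares in all 4 lists were 77.1% for ratios from 0.4 to 0.6, 75.9% from 0.6 to 0.8, 80.0% from 0.8 to 1 and 73.3% above 1, with overlapping intervals. The regions just inside the limit were DST/BEND6 (ratio 0.407, 3 lists) and TRPT1/NUDT22 (0.416, 4 lists), and those just outside were KIF18A/METTL15 (0.383, 4 lists) and ZNF790/ZNF345 (0.382, 4 lists). At the spacing limit, HNRNPA2B1/CBX3 (999 bp) lay inside and TSR1/SGSM2 (1044 bp) outside, both with a peak in every list.

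Motifs were searched in the central 300 bp of each region, on both strands. The ETS motif CCGGAAGT had a match in 142 bidirectional coding promoters (12.6%, 10.8 to 14.7), in 7.14% of promoters of one direction, in 8.54% of those with a divergent long non-coding RNA and in 2.20% of all regions. The difference to promoters of one direction was 5.50 percentage points (3.56 to 7.67). It held where the mid-point was within 50 bp of a TSS (17.2%, 14.2 to 20.8, against 10.4%, 9.0 to 12.0). From 50 to 99 bp (11.6% and 9.15%) and from 200 bp (2.59% and 2.37%) the intervals overlapped. Promoters with a divergent long non-coding RNA had 12.2% (9.4 to 15.8) within 50 bp, which overlapped the interval of bidirectional promoters. From 50 to 99 bp they had 14.6%, above the share of bidirectional promoters. ZNF143 is a zinc-finger factor found at many housekeeping promoters, and the letters searched are only part of its recognition element. They had matches in 17 bidirectional promoters (1.51%) and in 0.598% of promoters of one direction, a difference of 0.916 points (0.303 to 1.83). Within 50 bp of a TSS the matches were 6 (1.19%) against 11 (0.703%), and from 200 bp 1 (0.862%) against 4 (0.287%). The share was higher at bidirectional promoters in each distance class, but on 7 regions at most, and no intervals were computed by class.

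Most other promoter motifs were about as frequent at promoters of one direction. NRF1, a regulator of mitochondrial genes, had matches in 6.86% of bidirectional promoters and 5.67% of promoters of one direction, a difference of 1.18 points (-0.289 to 2.91). CCAAT was found in 37.1% and 36.3%, the GC box in 69.4% and 72.1%, YY1 in 4.01% and 3.81%, CRE in 3.21% and 3.26%, the E-box in 9.80% and 9.74%, and TATA in 3.92% and 4.12%. Motifs of inducible and lineage factors were rarer than over all regions: the AP1 motif TGANTCA had a match in 3.38% of bidirectional promoters and 17.9% of all regions, the RUNX motif TGTGGT in 10.6% and 32.8%, and the GATA motif AGATAA in 4.27% and 21%. For these 3 motifs the differences to promoters of one direction had intervals that included 0. The NFAT core GGAAAA had a match in 23.5% of bidirectional promoters, 20% of promoters of one direction and 29.3% of all regions. Its difference to promoters of one direction was 3.52 points (0.913 to 6.28), and that to promoters with a divergent long non-coding RNA 2.78 points (-0.401 to 6.01).

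**Figure D4:**
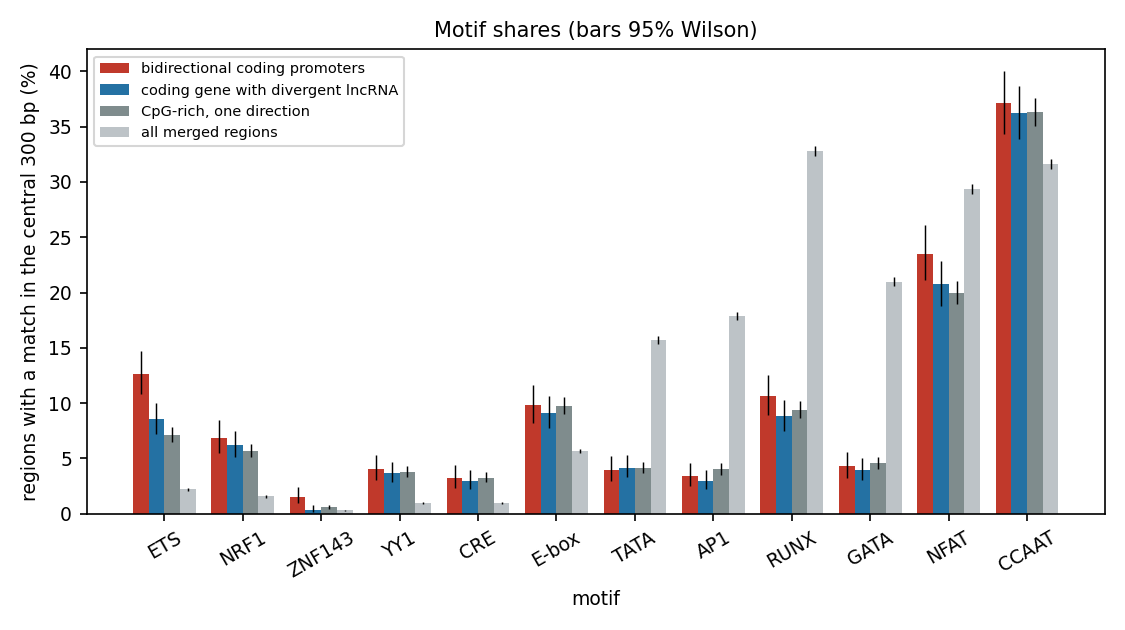
Share of regions with at least 1 match in the central 300 bp (y axis, percent, bars 95% Wilson intervals) for 12 motifs (x axis) in bidirectional coding promoters, coding promoters with a divergent long non-coding RNA, CpG-rich coding promoters of one direction and all merged regions. ETS stands at 12.6% in bidirectional promoters and 7.14% in promoters of one direction, and AP1, RUNX, GATA and TATA are highest over all regions.

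CCAAT matches went with strong peaks and with presence in all 4 lists. Bidirectional promoters with a match had a median score of 159, and those without had 112. The motif was present in 41.1% of the 868 regions in all 4 lists and in 21.5% of the 191 without a peak in the NS_DMSO-labelled list, a difference of 19.7 points (12.5 to 25.9). None of the 12 other motifs had an interval for this difference that excluded 0. Median scores were also higher with a match for NRF1 (158 against 122, 77 regions with a match) and ZNF143 (174 against 123, 17 regions). Other rare motifs differed less and in both directions. The medians were 137 against 124 for YY1 and for AP1, 125 against 124 for CRE, 122 against 125 for ETS and 118 against 125 for TATA. The CCAAT share rose from 21.5% (15.4 to 29.1) at scores below 50 to 58.8% (52.3 to 65.1) at 200 or more. It rose in the same way at promoters of one direction (22% to 60.7%), so the relation was not particular to divergent pairs. Within classes of GC content the median score was higher with CCAAT than without in each of the 5 classes, for instance 180 against 124 between 60% and 65% GC.

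Some motifs lay at particular distances from the TSSs. To place them, 460 pairs with canonical TSSs at least 200 bp apart were used, which gave 920 TSSs, and each match was placed by its distance to the nearer TSS. CCAAT matches within 100 bp lay upstream in 350 of 396 cases, with the fullest 20 bp class from 60 to 80 bp upstream (104 matches, 11.3 per 100 TSSs). ETS matches were fullest in the first 20 bp upstream (26 of 82), and TATA matches lay from 20 to 40 bp upstream in 19 of 27 cases. YY1 matches were on the other side of the start: 45 of 47 were downstream of the TSS, 25 of them within 20 bp. NRF1 matches lay upstream in 42 of 51 cases, none more than 20 bp downstream. GC box matches lay upstream in 738 of 1019 cases (72.4%), and every upstream 20 bp class held more of them than any downstream class. Others were spread more evenly: NFAT matches lay upstream in 72 of 131 cases, RUNX in 39 of 65 and AP1 in 12 of 21. In pairs under 100 bp apart ETS matches were found in the central 300 bp of 19.8% of regions and CCAAT in 19.0%, and from 500 bp upwards in 2.34% and 46.1%. In the latter the window often lies between the TSSs and away from both.

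**Figure D5:**
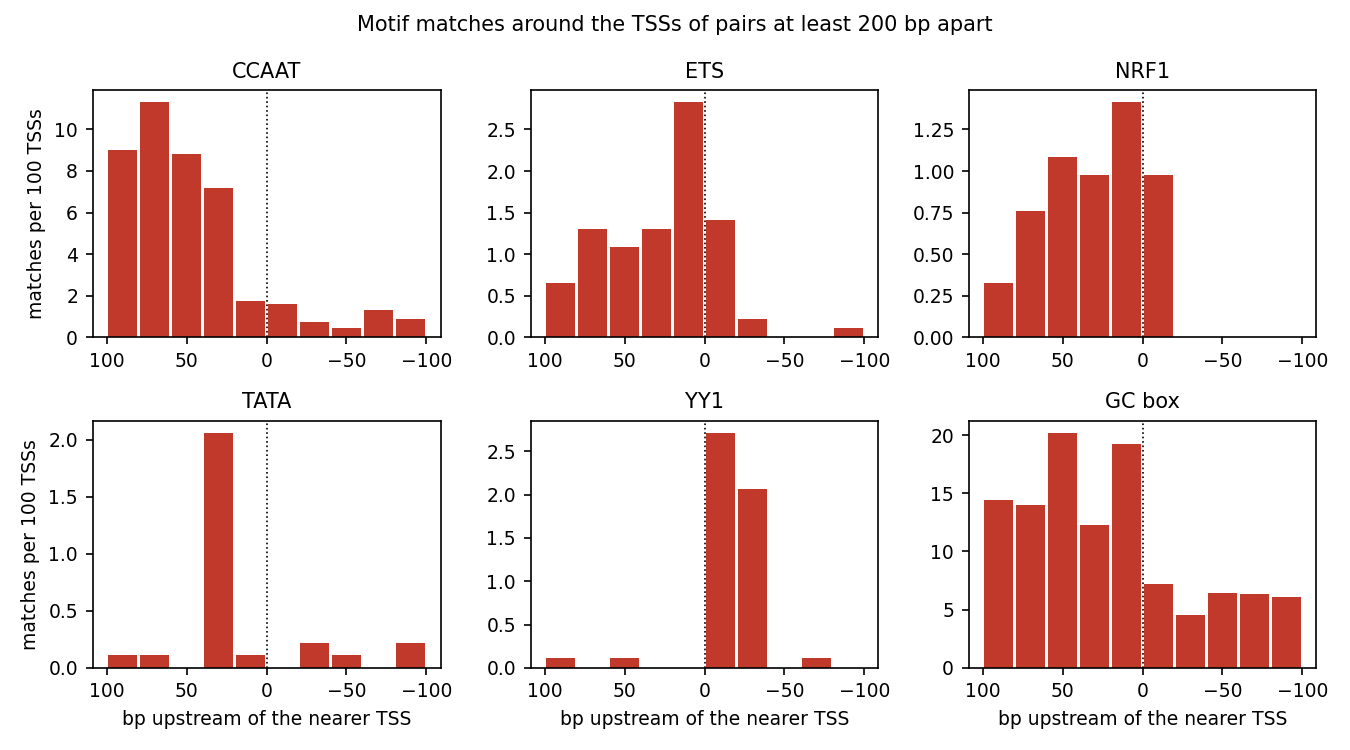
Matches per 100 TSSs (y axis) in 20 bp classes by distance from the nearer canonical TSS (x axis, bp upstream to the left of the dotted line, downstream negative) for 6 motifs at 460 pairs at least 200 bp apart. CCAAT is fullest from 60 to 80 bp upstream, TATA from 20 to 40 bp upstream and YY1 in the first 20 bp downstream.

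Differences between lists were small at bidirectional coding promoters. Among the 868 in all 4 lists, the highest fold enrichment was 1.20 times the lowest in the median (quartiles 1.13 and 1.28), against 1.23 at promoters of one direction and 1.27 over all regions in 4 lists. The median ratio to the NS_DMSO-labelled list was 0.991 in the SW_DMSO-labelled list, 1.03 in the NS_rottlerin-labelled list and 1.07 in the SW_rottlerin-labelled list. The same ratios over all regions in 4 lists were 0.985, 1.04 and 1.08. These 3 ratios share their denominator and are not independent.

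Few regions passed a ratio of 1.5. In the SW_DMSO-labelled list 1 of 888 bidirectional promoters with a peak in both lists was at least 1.5 times higher than in the NS_DMSO-labelled list, against 1.67% of all regions, and 2 were at least 1.5 times lower, against 2.18%. In the NS_rottlerin-labelled list 4 of 898 were higher, against 3.19%, and 0 lower, against 1.38%. In the SW_rottlerin-labelled list 13 of 922 were higher (1.41%, 0.826 to 2.40), against 4.5%, and 1 lower, against 1.54%. Low shares were also found at other CpG-rich coding promoters: promoters of one direction had 2.18% higher (1.77 to 2.67) and those with a divergent long non-coding RNA 1.68% (1.07 to 2.60) in that list, and the intervals overlapped those of bidirectional promoters in each list and direction. With 1 library a label, none of these could be set against a spread between replicates.

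HEATR5B/GPATCH11 (chr2:37311387-37311711) had fold enrichments of 3.76 (NS_DMSO), 5.65 (SW_DMSO), 5.28 (NS_rottlerin) and 5.53 (SW_rottlerin). It was lowest in the NS_DMSO-labelled list, with ratios of 1.50, 1.41 and 1.47 in the others. WDPCP/MDH1, with cytosolic malate dehydrogenase, was also lowest there, with 4.13, 6.16, 5.53 and 6.55. Of the 868 regions in all 4 lists, 8 (0.922%) were at least 1.25 times higher than in the NS_DMSO-labelled list in all 3 others, against 3.40% of all such regions.

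The regions past 1.5 in the NS_rottlerin-labelled list were RPUSD1/CHTF18, PLAG1/CHCHD7, BOP1/HSF1 and POGLUT2/BIVM. RPUSD1/CHTF18, with a sister-chromatid cohesion factor that loads the replication clamp, had 3.29, no peak, 5.47 and 5.44. BOP1/HSF1, with the main heat shock transcription factor, had 3.16, no peak, 5.20 and 4.54. PLAG1/CHCHD7 had 3.73, 3.73, 6.18 and 5.93. POGLUT2/BIVM had 4.08, 4.56, 6.40 and 5.98. All 4 regions were higher in both rottlerin-labelled lists than in the NS_DMSO-labelled one. For the NS_rottlerin-labelled list this follows from how they were picked. The SW_DMSO-labelled list gave a value for PLAG1/CHCHD7 and POGLUT2/BIVM only. This is a description of labelled lists whose identity is in doubt.

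In the SW_rottlerin-labelled list the largest ratio was at GNL1/PRR3 in the MHC region, with 2.40, 3.36, 2.65 and 4.2, followed by CIP2A/DZIP3, with an inhibitor of the phosphatase PP2A (3.31, 4.30, 4.70 and 5.57), RPUSD1/CHTF18 and GSS/MYH7B, with glutathione synthetase (4.41, 5.16, 6.03 and 7.30). The region more than 1.5 times lower in this list, and also in the SW_DMSO-labelled list, was MBD3L3/ZNF557, with 5.08, 3.08, 3.81 and 3.12. MBD3L3 belongs to a cluster of near-identical gene copies. NMRAL1/HMOX2, with the constitutive heme oxygenase, was low in the SW_DMSO-labelled list only, with 4.96, 3.20, 4.81 and 5.13.

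Of the 1123 regions, 191 (17%, 14.9 to 19.3) had no peak in the NS_DMSO-labelled list, against 53.5% of all merged regions, 27.7% of promoters of one direction and 24.1% of those with a divergent long non-coding RNA. They were weak, with a median highest score of 50 against 150 for those in all 4 lists. Their merged regions, joined from fewer lists, were 250 bp wide in the median against 554 bp. Of the 191, 9 shared their pair with another region that had a peak in the NS_DMSO-labelled list. A peak in 1 other list only was found at 69 of the 191. The SW_rottlerin-labelled list, the longest, supplied 47 of those 69. Between scores of 50 and 99 the share without a peak in the NS_DMSO-labelled list was 31.7% (26.6 to 37.3) at bidirectional promoters and 35.8% (33.7 to 38.0) at promoters of one direction, with overlapping intervals.

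The strongest of them were ZSWIM7/TTC19, with an assembly factor of respiratory complex III (scores 48 in SW_DMSO, 126 in NS_rottlerin and 152 in SW_rottlerin), and KIAA0319L/NCDN, with neurochondrin (130, 144 and 136). NKAIN4/ARFGAP1 had 123, 48 and 117, and CIAPIN1/COQ9, with genes of iron-sulphur protein assembly and coenzyme Q synthesis, had 120, 87 and 121. The ZNF821/IST1 region had a score of 123 in the SW_DMSO-labelled list and a peak in no other list. It covered neither TSS of its pair, which held for 66 of the 1123 regions (5.88%).

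A peak in the NS_DMSO-labelled list alone was found at 5 regions (0.445%, 0.190 to 1.04), against 7.83% of all merged regions, 1.32% (1.05 to 1.64) of promoters of one direction and 0.782% (0.448 to 1.36) of those with a divergent long non-coding RNA. They were ENSG00000285253/TCF12 (score 65), ATP5F1A/HAUS1 (59), ZNF425/ZNF398 (49), PCID2/CUL4A (37) and TMCO1/UCK2 (12). The TMCO1/UCK2 region covered neither TSS of its pair, with its mid-point 970 bp from the pair's centre. TCF12 encodes an E protein of the lymphoid lineage, and CUL4A the scaffold of a ubiquitin ligase. All 5 scores were below the median of 124.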

How the data were processed

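FAIRE-seq libraries of Jurkat cells and a total input were made by the authors. Reads were trimmed (cutadapt), aligned to hg19 (Bowtie2) and cleared of duplicates (Picard), and each sample's peaks were called over the input by MACS2 with the Broad option and a stated q-value limit of 0.05, past which 1014 of 93353 deposited peaks lie (lowest score 10); versions are not given in the sources used here, and HTSeq is also named in the submitters' processing notes. The deposited lists give a score (10 times the −log10 of the q-value, cut to a whole number in all but 3 peaks), the fold enrichment as a ratio to input, and the −log10 p-value and q-value. The deposited lists are separate for each label. In the paper's methods, the regions of the DMSO samples were pooled and those that overlapped were joined. Read depth is unknown from the lists.

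From these lists, overlapping or touching peaks were merged, TSSs and exons were taken from GENCODE release 44 on GRCh37, and sequence was read with pysam 0.24.0. Where a region met the rule with several pairs, the named pair whose centre was nearest to the mid-point was used. The highest value of a region in a list was taken. Wilson intervals came from scipy 1.17.1, intervals of differences from Newcombe's method on them. Merging, pairing and motif search were tested on simulated data. The 28 regions on other sequences were left out. Genes are named by a rule: 30 known pairs, the 5 highest scores, the strongest regions without or with only an NS_DMSO-labelled peak, the 3 highest and lowest ratios a list, those next to the limits, the 3 widest and up to 4 per gene list. A few others, such as all regions past a ratio of 1.5 and further histone pairs, were named after their values were seen. Some genes that the rule names are not reported here. The members and lists were chosen with earlier results of these data known. Other TSS sets, limits, windows and peak thresholds were tried as alternatives.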

Additional observations from a re-analysis of the deposited data

How the results depend on the processing

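No paired analysis was possible because each label has 1 library. The number of bidirectional coding promoters was 1123 and fell to 704 with the outermost 5′ end of each gene as its only TSS. The share in all 4 lists, 77.3%, was 72.1% when only the higher-scoring 50% of peaks entered, and with 1 list left out at a time the share in all of the other 3 lay between 79.8% and 81.7%, an alternative chosen after seeing the data. The lead over promoters of one direction, 14.6 points, was 21.2 points with no CpG limit. The share without a peak in the NS_DMSO-labelled list, 17%, was 19.7% with the higher-scoring 50% and 13.5% with the same number of highest-scoring peaks in each list, where the share in the NS_DMSO-labelled list alone was 1.76% in place of 0.445%. Coverage of annotated pairs was 69.4% with the higher-scoring 50% of each list.

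Counts past 1.5 times rested on the measure. At 2 times, 0 regions were called in each of the 3 lists and in either direction. After division by the median ratio of all shared regions, 3 were higher (SW_DMSO), 1 was lower (NS_rottlerin), and 5 were higher and 3 lower (SW_rottlerin). With the −log10 q-value in place of fold enrichment, 65 were higher and 90 lower (SW_DMSO), 127 and 67 (NS_rottlerin), and 193 and 30 (SW_rottlerin). The q-value moves with the depth of a library as well as with enrichment, and depth was unknown. In a 500 bp window, which holds more letters, the ETS share was 17% and the CCAAT share 49.5%. The ETS lead over promoters of one direction was 8.14 points in that window, and the reason for its change was not tested. The CCAAT difference from promoters of one direction was 0.809 points and turned to -1.23 points with the higher-scoring 50% of each list. The lead over promoters of one direction kept its sign for the share in all 4 lists and for the ETS share under each alternative for which this difference was computed, which leaves out the runs without 1 list.

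The limits of these data are that each label has 1 library, that the labels and the methods differ on which samples the lists are, and that the signal of a region missing from a list was not recorded. TSSs come from annotation and were not measured in Jurkat.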
